A study of Mus musculus with 12 samples.

Results

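Perivascular adipose tissue (PVAT) preadipocytes, from fat lining the thoracic aorta, were compared with DPP4+ progenitors, sorted from inguinal white fat (IWAT), the subcutaneous depot of the mouse groin. The comparison used 6 of the 12 libraries of the series, 3 of each population, and 18855 of the 31099 genes in the count table, chosen by 1 filter on low counts. The other 6 libraries, 3 of PVAT progenitors and 3 of inguinal ICAM1+ preadipocytes, entered the same statistical fit. All 4 populations came from wild type CD-1 pups 3 days old, male and female together, whose tissue was pooled. Per the labels, PVAT and IWAT libraries that carry 1 number share a pool of mice. The pair was chosen as the most distant of the populations. PVAT was taken and digested together with the aorta it surrounds, so that cells of the aortic wall were in the digest before the sort. Cells were freed with dispase II and collagenase D and sorted by FACS, and poly(A) RNA was sequenced by an ultra-low input method. The surface markers that defined PVAT preadipocytes were not given in the sources used here, so depot, stage of differentiation and sort gate cannot be told apart in this comparison. RNA was measured in bulk, so fewer cells of a type and less RNA per cell cannot be told apart either.

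In subcutaneous fat, DPP4+ cells are multipotent mesenchymal progenitors of the connective tissue sheath. They give rise to ICAM1+ preadipocytes, which are committed to become fat cells. The fat around the thoracic aorta is thermogenic in the mouse: its adipocytes resemble brown adipocytes, burn fatty acids in mitochondria and produce heat through the uncoupling protein UCP1. Adipocyte differentiation is driven by the transcription factors PPARG and the C/EBP family.

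These populations lay farther apart than any other pair of the 4. They were chosen as the most distant, so this order restates the choice and is no separate result. The root mean square difference in log2 level over the genes tested was 1.57 on average between a PVAT preadipocyte and a DPP4+ progenitor library (range 1.42 to 1.71), against means of 0.993 to 1.27 for the other 5 pairs of populations. Within the PVAT preadipocytes it was 0.71 and within the DPP4+ progenitors 0.717. At an edgeR adjusted p under 0.05, 10029 of 18855 genes (53.2%) differed: 5372 (28.5%) were higher in PVAT preadipocytes and 4657 (24.7%) were lower. Of these, 7032 genes (37.3% of those tested) differed by at least 2-fold and 1260 by at least 8-fold. The 3 libraries of one group did not overlap the 3 of the other for 11172 of all 18855 genes (59.3%). In the same fit, 44.9% of genes were called between PVAT preadipocytes and ICAM1+ preadipocytes, 32.9% between PVAT preadipocytes and PVAT progenitors, 24.9% between PVAT and DPP4+ progenitors, 17.9% between the 2 inguinal populations and 14.2% between PVAT progenitors and ICAM1+ preadipocytes. The counts for each gene group are read here against 28.5% higher, 24.7% lower and an all-gene median log2 fold change of 0.09.

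Total counts ran from 15614628 to 17780457 over the 6 libraries. The result depended on the scale, and 18 collagen genes held 26.36% to 28.59% of the counts of the DPP4+ libraries. When libraries were scaled to their totals in place of TMM, the median of all genes moved from 0.09 to 0.69, 78.7% of calls were higher in PVAT preadipocytes in place of 53.6%, and the calls were 9050 higher and 2444 lower. By the same root mean square distance, PVAT preadipocyte replicate 1 was 0.687 from replicate 2 and 0.869 from replicate 3 of its group, which were 0.575 from each other, and 0.746 from PVAT progenitor replicate 1. That progenitor library was closer to it than to its own replicates (0.837 and 0.844). In PVAT preadipocyte replicate 1, the thermogenic, respiratory and lipid storage lists were at a median 1.21, 1.23 and 1.09 log2 units below the mean of the other 2 libraries, while the collagens were 1.09 above. Of the DPP4+ libraries, replicate 2 had mast cell and haematopoietic markers at a median 2.02 and 2.0 log2 units above the other 2. Without that PVAT preadipocyte library 10575 genes were called, and without that DPP4+ library 8636.

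**Figure D1:**
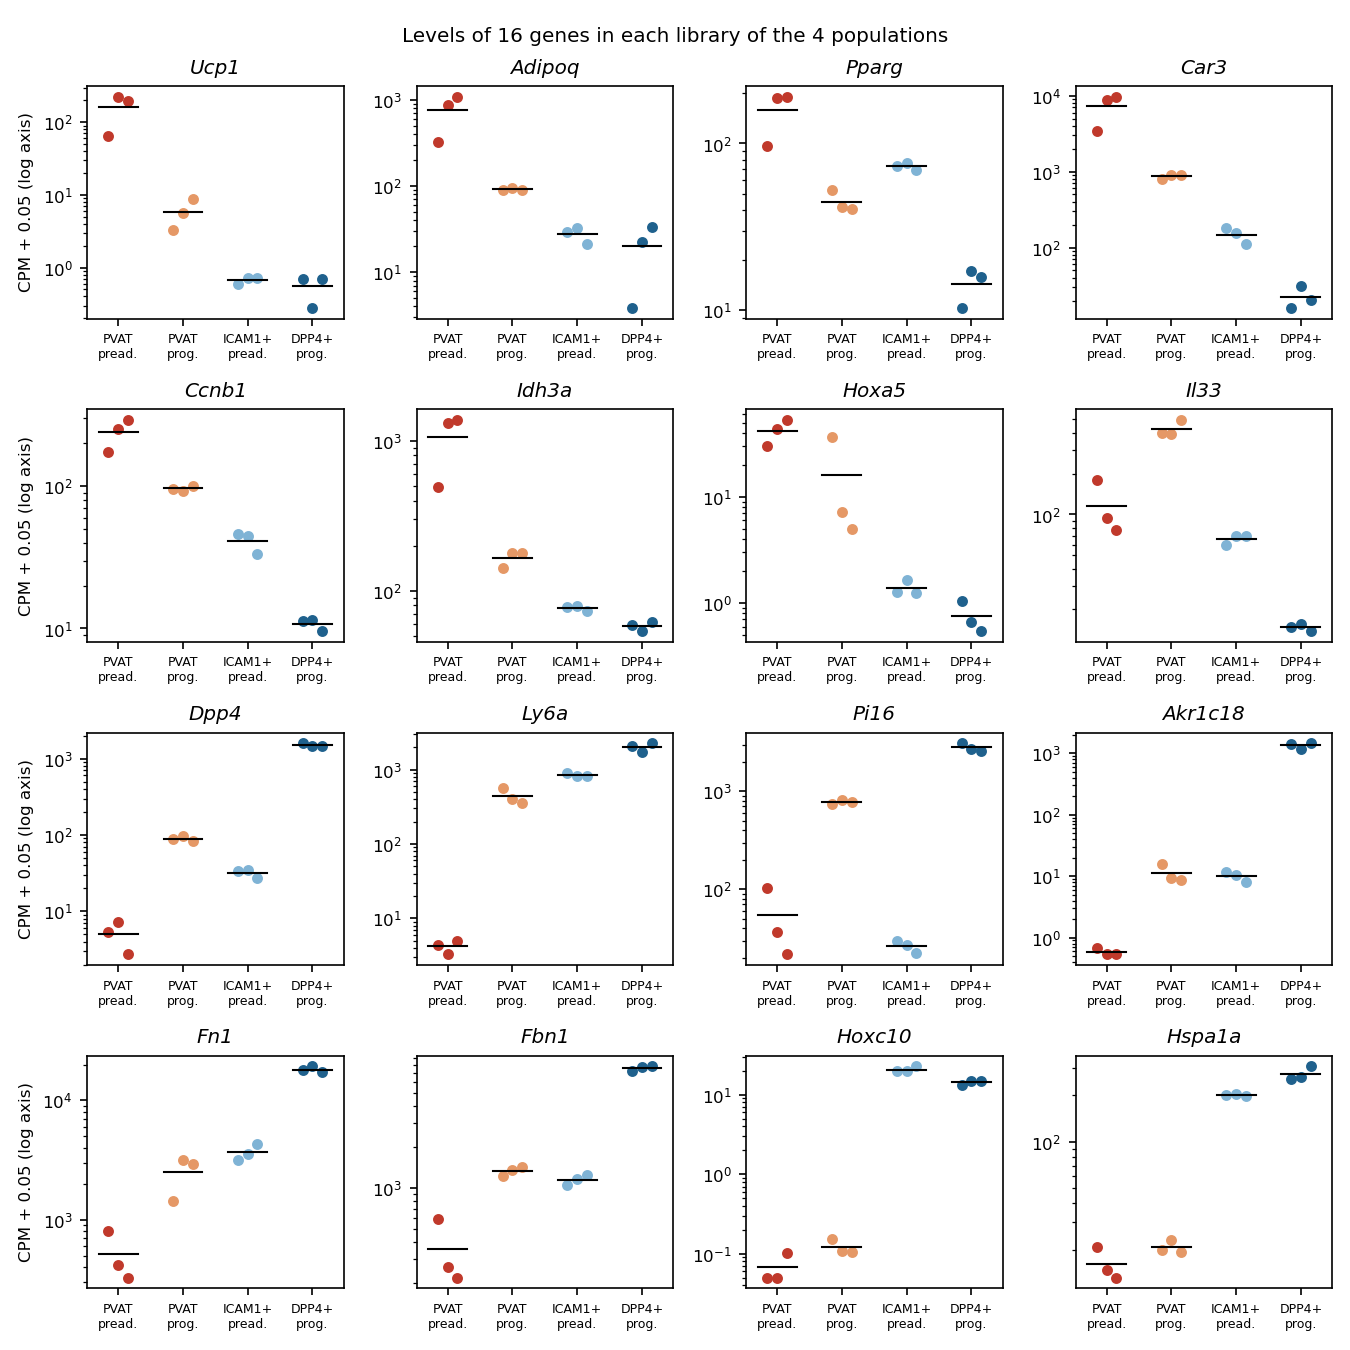
Level of 16 genes (CPM + 0.05, log axis) in each of the 3 libraries of PVAT preadipocytes, PVAT progenitors, ICAM1+ preadipocytes and DPP4+ progenitors; points are libraries and lines are group means. Ucp1, Adipoq and Car3 are highest in PVAT preadipocytes, and Dpp4, Ly6a, Akr1c18 and Fn1 are highest in DPP4+ progenitors.

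The interstitial progenitor markers, genes known from DPP4+ cells of subcutaneous fat, were all lower in PVAT preadipocytes: 24 of 24 were called lower, with a median log2 fold change of -5.36 (range -11.3 to -2.32). Dpp4 (chromosome 2, 62330073 to 62412231, minus strand), a surface peptidase, was measured at 5.41, 7.14 and 2.68 CPM in the 3 PVAT preadipocyte libraries and 1593, 1476 and 1460.5 CPM in the 3 DPP4+ progenitor libraries. The groups did not overlap, and since DPP4 was the sort marker this only checks the labels (log2 fold change -8.21 ± 0.34 (SE), edgeR adjusted p = 4.62e-09). Pi16 (chromosome 17, 29317680 to 29330593, plus strand), which encodes a secreted peptidase inhibitor-like protein, was measured at 104, 36.8 and 21.6 CPM in the 3 PVAT preadipocyte libraries and 3106, 2702 and 2594 CPM in the 3 DPP4+ progenitor libraries. PVAT preadipocyte replicate 1 was the highest of its group and was still far below every DPP4+ library (log2 fold change -5.69 ± 0.49 (SE), edgeR adjusted p = 1.63e-06). Akr1c18 (chromosome 13, 4132615 to 4150654, minus strand), which encodes the progesterone-inactivating 20-alpha-hydroxysteroid dehydrogenase, had the lowest log2 fold change among genes called with at least 10 CPM in DPP4+ progenitors. It was measured at 0.639, 0.489 and 0.483 CPM in the 3 PVAT preadipocyte libraries and 1396, 1153 and 1463 CPM in the 3 DPP4+ progenitor libraries, and each DPP4+ library was above 1000 CPM (log2 fold change -11.26 ± 0.36 (SE), edgeR adjusted p = 5.11e-10). Wnt2, a Wnt ligand, was at 1.98 ± 0.462 against 391.96 ± 36.5 CPM (means ± SD, n = 3), and Cd55, which encodes a complement regulator on the cell surface, at 9.35 ± 0.737 against 994 ± 51.1 CPM.

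Genes of the Ly6 family and other GPI-anchored surface proteins went the same way, with 7 of 10 called lower and 1 higher. This list shares Ly6a, Ly6c1 and Cd55 with the interstitial progenitor markers, so the lists are not independent. Ly6a, which encodes the stem cell antigen SCA-1, was measured at 4.33, 3.23 and 4.99 CPM in the 3 PVAT preadipocyte libraries and 2073, 1694 and 2267 CPM in the 3 DPP4+ progenitor libraries. Every PVAT preadipocyte library was below 5 CPM and the groups did not overlap (log2 fold change -8.91 ± 0.29 (SE), edgeR adjusted p = 5.35e-10). Ly6c1 (-8.48) and Thy1 (-6.13) were called lower as well, and Ly6h (4.27) was called higher (log2 fold changes). Ly6 genes are close paralogues, and reads of near-identical copies could have been shared between them. Pdgfra, the receptor used to recognise mesenchymal progenitors of fat, was detected in both populations, at 174 ± 61.2 against 493 ± 47.5 CPM (log2 fold change -1.5 ± 0.28 (SE), edgeR adjusted p = 0.000656).

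Committed preadipocyte markers were mixed: 16 of 24 were called higher, 6 lower (3 under library-total scaling), and the median was 0.95. This list shares Pparg and Zfp423 with the adipogenic transcription factors below, and Fabp4, Lpl and Cd36, among others, with the lipid storage genes. Counts of these lists are therefore not independent. Pparg (chromosome 6, 115360951 to 115490399, plus strand), the master regulator of adipocyte differentiation, was measured at 96.2, 187 and 191 CPM in the 3 PVAT preadipocyte libraries and 10.3, 17.2 and 15.8 CPM in the 3 DPP4+ progenitor libraries. The lowest PVAT preadipocyte library was above the highest DPP4+ library by a wide margin (log2 fold change 3.46 ± 0.28 (SE), edgeR adjusted p = 8.03e-07). Fabp4, a fatty acid binding protein, was at 1962 ± 1105 against 205 ± 71.7 CPM and Lpl, the lipase that releases fatty acids from circulating lipoproteins, at 2108 ± 492 against 807 ± 81.6 CPM. Icam1, which marks the inguinal preadipocytes, was called lower: it was measured at 52.9, 35.1 and 30.4 CPM in the 3 PVAT preadipocyte libraries and 67.9, 73.5 and 43.7 CPM in the 3 DPP4+ progenitor libraries, with replicate 1 of the first group above replicate 3 of the second (log2 fold change -0.64 ± 0.22 (SE), edgeR adjusted p = 0.026). The call was lost without PVAT preadipocyte replicate 2 (adjusted p = 0.0993) or 3 (0.0732), without DPP4+ replicate 1 (0.0897) or 2 (0.117), and under library-total scaling (0.828). H19, an imprinted non-coding RNA (-2.82), Zfp423, a zinc finger factor of preadipocytes (-1.32), and Dlk1 (-0.89; -0.28 and not called under library-total scaling) were called lower (log2 fold changes).

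Among 25 adipogenic transcription factors, 15 were called higher and 7 lower, with a median of 0.97. Cebpa (chromosome 7, 35119293 to 35121928, plus strand), which cooperates with PPARG, was measured at 12.1, 36.96 and 45.5 CPM in the 3 PVAT preadipocyte libraries and 0.714, 0.683 and 0.738 CPM in the 3 DPP4+ progenitor libraries. All 3 DPP4+ libraries were below 1 CPM, and PVAT preadipocyte replicate 1 was the lowest of its group (log2 fold change 5.46 ± 0.60 (SE), edgeR adjusted p = 1.24e-05). Mlxipl, the carbohydrate response factor ChREBP (3.8), and Klf15 (4.57) were higher too, while Zfp521, a repressor of adipogenic commitment (-2.59), Klf4 (-2.04) and Ebf1 (-1.04; adjusted p = 0.0506 under library-total scaling) were lower. Cebpb rested on 1 library: PVAT preadipocytes were at 2.16, 9.14 and 87.97 CPM and DPP4+ progenitors at 1.29, 1.14 and 1.64, and without PVAT preadipocyte replicate 3 its log2 fold change went from 4.61 (edgeR adjusted p = 0.0282) to 2.0 (adjusted p = 0.262). The call was also lost with the replicate block, which pairs libraries of 1 pool of mice (4.54, adjusted p = 0.0502), and without any 1 DPP4+ library (adjusted p 0.0712 to 0.0863).

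Genes of lipid storage and handling were higher in PVAT preadipocytes, with 21 of 27 called higher, 3 lower and a median of 2.21. Car3 (chromosome 3, 14863512 to 14872523, plus strand), a carbonic anhydrase abundant in fat cells, had the largest gain in CPM of any called gene. It was measured at 3439, 8704 and 9738 CPM in the 3 PVAT preadipocyte libraries and 15.9, 31.2 and 20.01 CPM in the 3 DPP4+ progenitor libraries. Replicate 1 was well below the other 2 PVAT preadipocyte libraries and far above every DPP4+ library (log2 fold change 8.35 ± 0.48 (SE), edgeR adjusted p = 5.5e-08). Plin1 (chromosome 7, 79720218 to 79732903, minus strand), the coat protein of the lipid droplet, was measured at 57.02, 178 and 157 CPM in the 3 PVAT preadipocyte libraries and 0.5001, 1.06 and 1.89 CPM in the 3 DPP4+ progenitor libraries. No DPP4+ library reached 2 CPM (log2 fold change 6.85 ± 0.59 (SE), edgeR adjusted p = 1.61e-06). Lgals12, a galectin of lipid droplets, was at 71.9 ± 24.1 against 0.4704 ± 0.456 CPM, and Gpd1, which makes glycerol 3-phosphate for triglyceride synthesis, at 375 ± 165 against 4.97 ± 3.25 CPM. The 3 called lower were Gpihbp1, which anchors lipoprotein lipase to capillaries (-2.76), Mgll, monoglyceride lipase (-1.27), and Abhd5, the coactivator of triglyceride lipase (-0.49, but 0.12 and not called under library-total scaling). The Abhd5 call did not survive the replicate block either (-0.48, adjusted p = 0.0661), nor the removal of any 1 DPP4+ library (adjusted p 0.0556 to 0.143) or PVAT preadipocyte replicate 1 (0.0565) or 2 (0.0659).

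Of 13 adipokine genes tested, 8 were called higher and 1 lower. Adipoq (chromosome 16, 23146536 to 23158028, plus strand), which encodes the hormone adiponectin, was measured at 322, 872 and 1095 CPM in the 3 PVAT preadipocyte libraries and 3.79, 22.1 and 33.7 CPM in the 3 DPP4+ progenitor libraries. DPP4+ progenitors held some Adipoq counts and were uneven among themselves, yet the highest of them was below the lowest PVAT preadipocyte library (log2 fold change 5.27 ± 0.67 (SE), edgeR adjusted p = 3.79e-05). Rbp4 (2.48), Retn (2.61) and Nrg4 (3.2) were called higher, and the 1 gene called lower was Angptl4, an inhibitor of lipoprotein lipase (log2 fold change -0.55 ± 0.18 (SE), edgeR adjusted p = 0.0196), which was close to 0 under library-total scaling (0.07, adjusted p = 0.762) and not called without DPP4+ replicate 3 (-0.39, adjusted p = 0.104).

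Thermogenic genes were higher as a group: 21 of 26 tested were called higher, none lower, with a median log2 fold change of 3.45. Ucp1 (chromosome 8, 83290352 to 83298452, plus strand), whose product uncouples respiration from ATP synthesis, was measured at 64.8, 225 and 195 CPM in the 3 PVAT preadipocyte libraries and 0.643, 0.228 and 0.656 CPM in the 3 DPP4+ progenitor libraries. All DPP4+ libraries were below 1 CPM and the groups did not overlap; replicate 1 was the lowest PVAT preadipocyte library (log2 fold change 8.29 ± 0.60 (SE), edgeR adjusted p = 3.65e-07). Cidea, a lipid droplet protein of brown adipocytes, was measured at 19.7, 62.04 and 58.3 CPM in the 3 PVAT preadipocyte libraries and 0.286, 0.607 and 0.4101 CPM in the 3 DPP4+ progenitor libraries, again with replicate 1 lowest in its group (log2 fold change 6.73 ± 0.61 (SE), edgeR adjusted p = 2.54e-06). Ppargc1a (chromosome 5, 51454250 to 51567726, minus strand), a coactivator of mitochondrial biogenesis, was at 33.2 ± 13.7 against 0.969 ± 0.654 CPM, and Cox8b, a cytochrome oxidase subunit of brown fat, at 22.2 ± 11.4 against 0.109 ± 0.189 CPM. Prdm16, a determinant of brown adipocyte fate, was measured at 8.996, 18.9 and 23.01 CPM in the 3 PVAT preadipocyte libraries and 3.21, 3.11 and 2.62 CPM in the 3 DPP4+ progenitor libraries (log2 fold change 2.5 ± 0.35 (SE), edgeR adjusted p = 7.79e-05). Ebf2, which marks brown preadipocytes, was detected in both populations at similar orders of magnitude, 255 ± 58.8 against 123 ± 6.52 CPM (log2 fold change 1.05 ± 0.18 (SE), edgeR adjusted p = 0.000334). Without PVAT preadipocyte replicate 1 the thermogenic list again had 21 members called higher, and 1, Acot11, an acyl-CoA thioesterase, was called lower.

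Every listed subunit of the respiratory chain was higher in PVAT preadipocytes. All 54 nuclear-encoded subunits on the list, which does not hold every subunit, were called higher (median 1.90, range 0.69 to 3.40), as were 13 of 13 mitochondrially encoded genes (median 1.59), 18 of 19 enzymes of the tricarboxylic acid cycle (median 1.89) and 18 of 22 genes of fatty acid oxidation (median 1.44, 1 lower). Idh3a (chromosome 9, 54586334 to 54604661, plus strand), a subunit of isocitrate dehydrogenase, was measured at 494, 1318 and 1382 CPM in the 3 PVAT preadipocyte libraries and 59.1, 53.7 and 62.3 CPM in the 3 DPP4+ progenitor libraries. PVAT preadipocyte replicate 1 was below the other 2 of its group and far above all DPP4+ libraries (log2 fold change 4.19 ± 0.33 (SE), edgeR adjusted p = 7.12e-07). Cox5a of complex IV (3.4), Uqcrfs1 of complex III (3.3), Cycs, cytochrome c (3.3), and Atp5b of the ATP synthase (1.75) were among them. mt-Nd1 of complex I was at 2785 ± 1204 against 701 ± 25.2 CPM. Cpt1a, the liver-type carnitine palmitoyltransferase, was the gene of fatty acid oxidation called lower, at 59.6 ± 27.8 against 223 ± 12.2 CPM (log2 fold change -1.9 ± 0.28 (SE), edgeR adjusted p = 0.000119). Hspd1, the mitochondrial chaperonin HSP60, was at 1101 ± 444 against 122 ± 1.89 CPM.

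As a share of all counts, the listed nuclear-encoded respiratory subunits made up 1.57, 3.35 and 3.99% in the PVAT preadipocyte libraries and 0.572, 0.525 and 0.583% in the DPP4+ libraries. Mitochondrially encoded genes made up 0.626, 1.36 and 1.57% and 0.247, 0.261 and 0.232%. The libraries did not overlap for either share, and an exact two-sided permutation test of 3 against 3 gave p = 0.1, the smallest it can give.

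The same libraries differed with the exonic length of the gene. Over 5 length classes of about equal size, the median log2 fold change went from 0.55 for the shortest (median 955 bases) to 0.24, 0.10, -0.07 and -0.27 for the longest (median 9180 bases). PVAT preadipocyte replicate 1 differed from its 2 replicates along the same axis, from -0.42 in the shortest class to 0.10 in the longest. Of the 54 listed nuclear-encoded respiratory subunits, 22 were in the shortest class, as were 12 of the 13 mitochondrially encoded genes. The 18 collagens had a median length of 8828 bases and 0 members in the shortest class. Cytosolic ribosomal protein genes, 14 of whose 32 tested members were in that class, were called higher for 31 of 32 (median 1.16) and went from 0.464, 0.401 and 0.475% of counts in DPP4+ progenitors to 0.8503, 1.45 and 2.03% in PVAT preadipocytes. What length adds to these group differences was not tested.

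**Figure D2:**
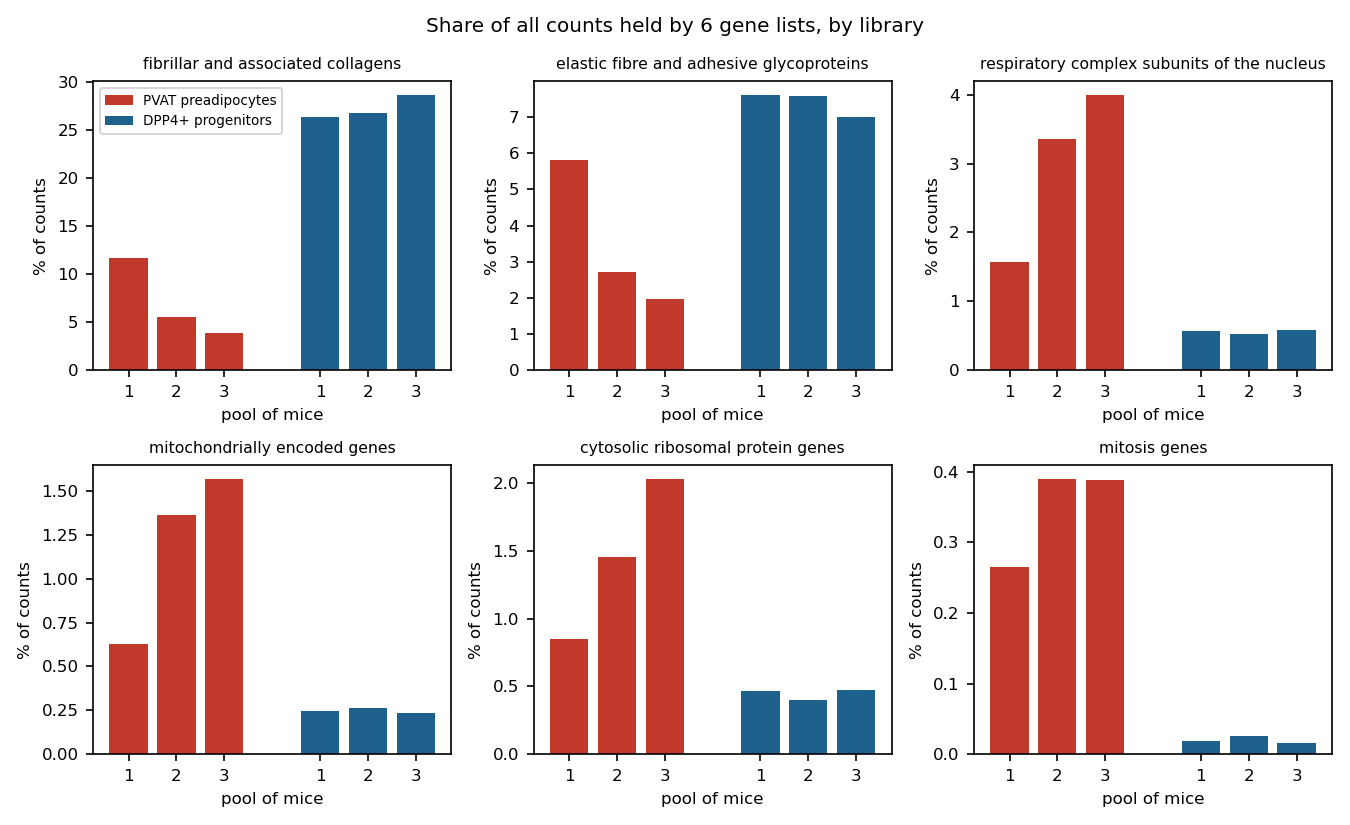
Share of all counts (percent) held by 6 gene lists in each of the 3 libraries of PVAT preadipocytes (red) and DPP4+ progenitors (blue), numbered by pool of mice. Collagens fill 26.36% to 28.59% of the DPP4+ libraries and 3.888% to 11.61% of the PVAT preadipocyte libraries, and the respiratory, ribosomal and mitosis lists are larger in every PVAT preadipocyte library.

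Genes of cell division were higher in PVAT preadipocytes without exception among mitosis genes, 35 of 35 (median 3.36, range 2.35 to 4.83), and for 31 of 32 genes of DNA replication (median 2.43). Ccnb1 (chromosome 13, 100778650 to 100786570, minus strand), the cyclin that drives entry into mitosis, was measured at 172, 249.5 and 292 CPM in the 3 PVAT preadipocyte libraries and 11.3, 11.4 and 9.51 CPM in the 3 DPP4+ progenitor libraries. PVAT preadipocyte replicate 1 was the lowest of its group, and the groups did not overlap (log2 fold change 4.47 ± 0.22 (SE), edgeR adjusted p = 1.88e-08). Top2a (chromosome 11, 98992943 to 99024189, minus strand), a topoisomerase needed to separate chromosomes, was measured at 177, 212 and 187 CPM in the 3 PVAT preadipocyte libraries and 16.6, 20.9 and 14.3 CPM in the 3 DPP4+ progenitor libraries (log2 fold change 3.47 ± 0.19 (SE), edgeR adjusted p = 4.04e-08). Among replication genes, Tk1, thymidine kinase (4.35), and Rrm2, ribonucleotide reductase (4.2), had the largest log2 fold changes of the genes named by the fixed rule. Mitosis genes held 0.265, 0.3895 and 0.389% of counts in PVAT preadipocytes and 0.0189, 0.0249 and 0.0158% in DPP4+ progenitors. Inhibitors of cyclin-dependent kinases were split, 3 of 6 higher and 2 lower: Cdkn2c (4.3) was called higher, and Cdkn1a, which encodes p21 (-1.47), and Cdkn1b, which encodes p27 (-1.49), were called lower.

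The promoters of mitosis genes that move together can be read for the elements known from this gene class. These are the cell cycle homology region, TTTGAA, and the CCAAT box, each searched on both strands in the 250 bases before the start site. Of 30 RefSeq promoter windows of 28 matched mitosis genes, 36.7% held TTTGAA, 76.7% held CCAAT and 33.3% held both, against 16%, 33.8% and 5.55% of all 32851 windows in the table and 11%, 34.8% and 4.05% of the 15154 windows of tested genes. Windows of a single chromosome were left out of the choice of those to print. Of the rest, the 3 windows with both motifs whose genes had the largest fold changes are shown, 5′ to 3′ on the gene's strand, with every match to either motif, on either strand, in capitals (build GRCm38.p6: Ube2c chr2:164769679-164769928, plus strand; Cdk1 chr10:69352913-69353162, minus strand; Top2a chr11:99024190-99024439, minus strand).
Ube2c: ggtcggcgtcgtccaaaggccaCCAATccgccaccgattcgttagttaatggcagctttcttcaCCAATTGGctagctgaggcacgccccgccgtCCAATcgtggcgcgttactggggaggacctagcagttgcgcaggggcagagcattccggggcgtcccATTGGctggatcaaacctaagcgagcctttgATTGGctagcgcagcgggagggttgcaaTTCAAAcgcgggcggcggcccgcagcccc
Cdk1: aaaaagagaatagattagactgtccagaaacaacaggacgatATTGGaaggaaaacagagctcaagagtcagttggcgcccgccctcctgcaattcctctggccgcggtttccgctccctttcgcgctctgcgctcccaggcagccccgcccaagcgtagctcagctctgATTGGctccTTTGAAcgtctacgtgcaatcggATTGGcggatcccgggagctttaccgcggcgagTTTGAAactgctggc
Top2a: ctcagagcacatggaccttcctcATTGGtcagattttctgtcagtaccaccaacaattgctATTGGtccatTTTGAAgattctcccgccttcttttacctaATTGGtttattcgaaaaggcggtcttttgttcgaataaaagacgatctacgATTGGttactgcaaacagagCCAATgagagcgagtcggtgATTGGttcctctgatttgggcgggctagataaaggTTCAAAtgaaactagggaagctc
The Ube2c window holds 7 matches, the Cdk1 window 5 and the Top2a window 8. Ube2c encodes the ubiquitin-conjugating enzyme of the anaphase-promoting complex and Cdk1 the kinase that cyclin B1 activates. Their log2 fold changes were 4.18 for Ube2c and 3.82 for Cdk1. Of 31 windows of replication genes, 16.1% held TTTCCCGC or TTTGGCGC, forms of the E2F site, against 1.3% of all windows and 2.24% of those of tested genes. GCATGCGC, part of the NRF1 site, was in 11.1% of 45 windows of nuclear-encoded respiratory subunits, 2.26% of all windows and 3.81% of those of tested genes. A match in a window does not show that a factor binds there.

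Hox genes, which record position along the body axis in the order of their paralogue number, differed by that number. Of 11 genes tested in paralogue groups 1 to 5, 9 were called higher in PVAT preadipocytes and none lower. Groups 6 to 8 had 5 of 7 tested genes higher and 2 lower, and groups 9 to 13 had 4 of 6 lower and none higher. Hoxa5 (chromosome 6, 52201754 to 52204587, minus strand) was measured at 29.9, 43.1 and 53 CPM in the 3 PVAT preadipocyte libraries and 1, 0.607 and 0.492 CPM in the 3 DPP4+ progenitor libraries. The groups were far apart, with replicate 1 the lowest PVAT preadipocyte library (log2 fold change 5.88 ± 0.75 (SE), edgeR adjusted p = 4e-05). Hoxc10 (chromosome 15, 102966796 to 102971893, plus strand) had 1 count in the 3 PVAT preadipocyte libraries together and 558 in the 3 DPP4+ libraries, where it was at 13.1, 14.7 and 14.8 CPM. The ratio scaled by library size was 843, with a 95% exact counting interval of 151 to 33300. Hoxa10 was at 0.289 ± 0.166 against 25.4 ± 3.01 CPM, and Hoxa2 at 10.96 ± 1.69 against 0.124 ± 0.0782 CPM. Hoxc8 was called higher (1.03) and Hoxd8 lower (-2.69). Hox genes sit in dense clusters with antisense transcripts, and the strand setting of the counting was not given in the sources used here, so reads of overlapping neighbours could have been mixed.

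**Figure D3:**
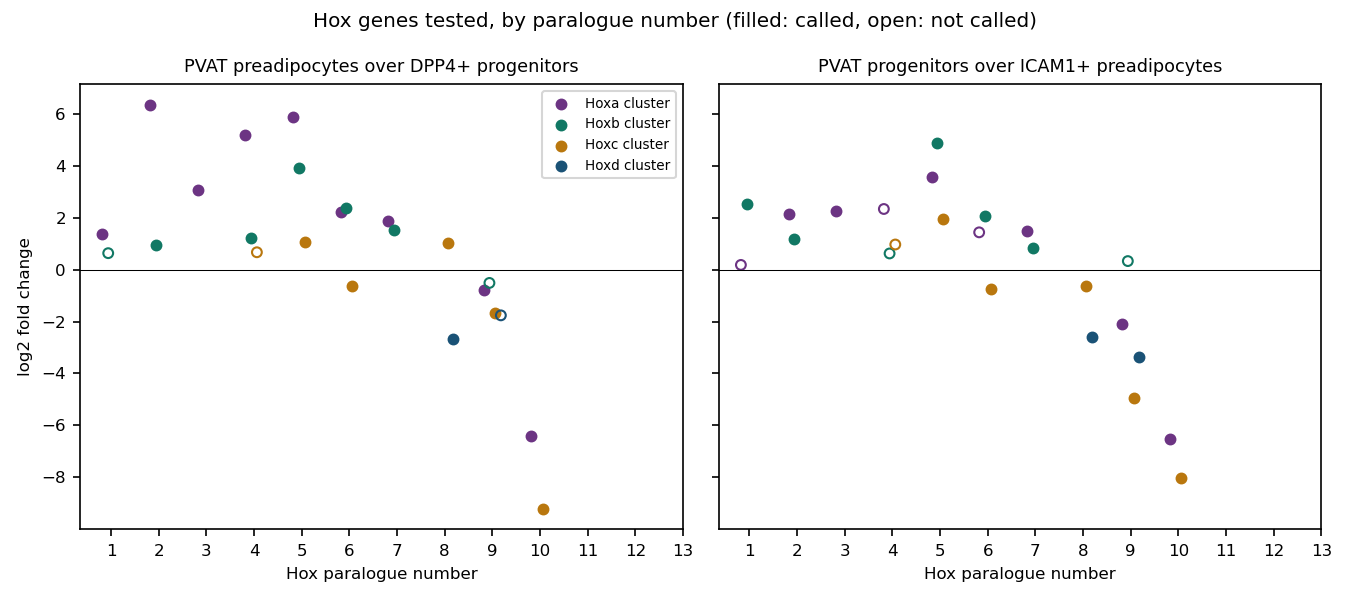
Log2 fold change of each tested Hox gene against its paralogue number, for PVAT preadipocytes over DPP4+ progenitors (left) and PVAT progenitors over ICAM1+ preadipocytes (right), 2 comparisons without a shared library; colour is the Hox cluster and filled points are called genes. Paralogues 1 to 5 lie above 0 in both panels, and paralogue 10 lies below -6 in both.

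Transcription factors of limb and body wall were lower in PVAT preadipocytes, 14 of 23 tested with a median of -2.15, and 1 was higher, Twist2 (0.97, with 46.5% of its exonic length overlapping another gene; 0.54 and adjusted p = 0.217 without PVAT preadipocyte replicate 1, and not called without DPP4+ replicate 1 (0.101) or 2 (0.136)). Tbx15 (chromosome 3, 99240381 to 99354259, plus strand), a T-box factor of trunk and limb mesenchyme, was measured at 1.82, 0.782 and 0.5901 CPM in the 3 PVAT preadipocyte libraries and 87.4, 91.9 and 97.3 CPM in the 3 DPP4+ progenitor libraries. The groups did not overlap (log2 fold change -6.42 ± 0.33 (SE), edgeR adjusted p = 2.78e-08). Pitx1, a hindlimb factor, had no counts in PVAT preadipocytes and 115 in the DPP4+ libraries together. With a floor of 3 counts over the group, it was at least 57.9-fold lower, and En1 was at least 51.4-fold lower in the same way. Prrx1, a factor of limb and fat mesenchyme, was at 56.6 ± 11.1 against 248.93 ± 15.4 CPM. Factors known from neural crest and the outflow tract of the heart were higher for 13 of 20 tested genes, with 2 lower, Mef2c and Sox10, and a median of 2.21. The list held 27 genes: Hand1, Gata4, Gata5, Foxd3, Tfap2a and Pax3 did not pass the count filter, and Nkx2-5 was not in the count table. Foxc2 (chromosome 8, 121116171 to 121118895, plus strand) was measured at 14.7, 9.49 and 7.03 CPM in the 3 PVAT preadipocyte libraries and 0.0714, 0.228 and 0.246 CPM in the 3 DPP4+ progenitor libraries, with the groups clearly separate (log2 fold change 5.81 ± 1.04 (SE), edgeR adjusted p = 0.000534). Foxc1 (4.72), Tbx1 (4.95), Heyl (4.06) and Wt1, a factor of the coelomic lining (346 counts against 1), were higher as well.

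Extracellular matrix genes were more often lower than higher in PVAT preadipocytes. Of 18 collagens, 12 were called lower and 2 higher (median -1.72), and of 28 elastic fibre and adhesive proteins 16 were lower and 5 higher (median -1.18). Col3a1 (chromosome 1, 45311538 to 45349706, plus strand), type III collagen, held the most counts of any gene over the 6 libraries. It was measured at 47234, 22325 and 16124 CPM in the 3 PVAT preadipocyte libraries and 195246, 195721 and 227592 CPM in the 3 DPP4+ progenitor libraries. Replicate 1 was the highest of the PVAT preadipocytes and was far below every DPP4+ library (log2 fold change -2.85 ± 0.41 (SE), edgeR adjusted p = 0.000111). Fn1 (chromosome 1, 71585520 to 71653200, minus strand), fibronectin, was measured at 796, 419.9 and 325 CPM in the 3 PVAT preadipocyte libraries and 17836, 19313 and 17289 CPM in the 3 DPP4+ progenitor libraries, with the groups far apart (log2 fold change -5.14 ± 0.41 (SE), edgeR adjusted p = 8.04e-07). Fbn1 (chromosome 2, 125300594 to 125507993, minus strand), the core of elastic microfibrils, was measured at 589, 259 and 217 CPM in the 3 PVAT preadipocyte libraries and 7265, 7721 and 7838 CPM in the 3 DPP4+ progenitor libraries (log2 fold change -4.42 ± 0.34 (SE), edgeR adjusted p = 6.32e-07). Efemp1, fibulin 3, was at 32.5 ± 3.68 against 3408 ± 319 CPM and Tnxb, tenascin X, at 143 ± 18.2 against 2469 ± 105 CPM. Col8a2 (4.08), Col11a1 (3.01) and Ltbp2 (2.33) were called higher.

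The 18 collagens together held 11.6, 5.57 and 3.89% of counts in the PVAT preadipocyte libraries and 26.4, 26.8 and 28.6% in the DPP4+ libraries. PVAT preadipocyte replicate 1 held the largest share of its group, and all 3 were below every DPP4+ library (exact two-sided permutation test, p = 0.1, the smallest that 3 against 3 allows). The 10 genes with the most counts held 15.9, 8.54 and 6.51% and 31.6, 31.8 and 33.1%. Small leucine-rich proteoglycans (5 lower, 2 higher of 12, which became 3 and 6 under library-total scaling) and basement membrane genes (8 lower, 5 higher of 19) were mixed. Dcn, decorin, was called lower at 5741 ± 1295 against 11012 ± 1100.4 CPM, which was lost under library-total scaling (-0.34, adjusted p = 0.139). Hspg2, perlecan (-2.74), and Nid1, nidogen (-3.16), were lower, and Col15a1 (3.38) was higher. Of 23 matrix proteases and inhibitors, 11 were lower and 1, Adam12, higher, which became 7 and 4 under library-total scaling. Plau, urokinase (-6.88), Timp3 (-4.27), Plat (-3.51) and Mmp2 (-2.05) were among those lower.

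**Figure D4:**
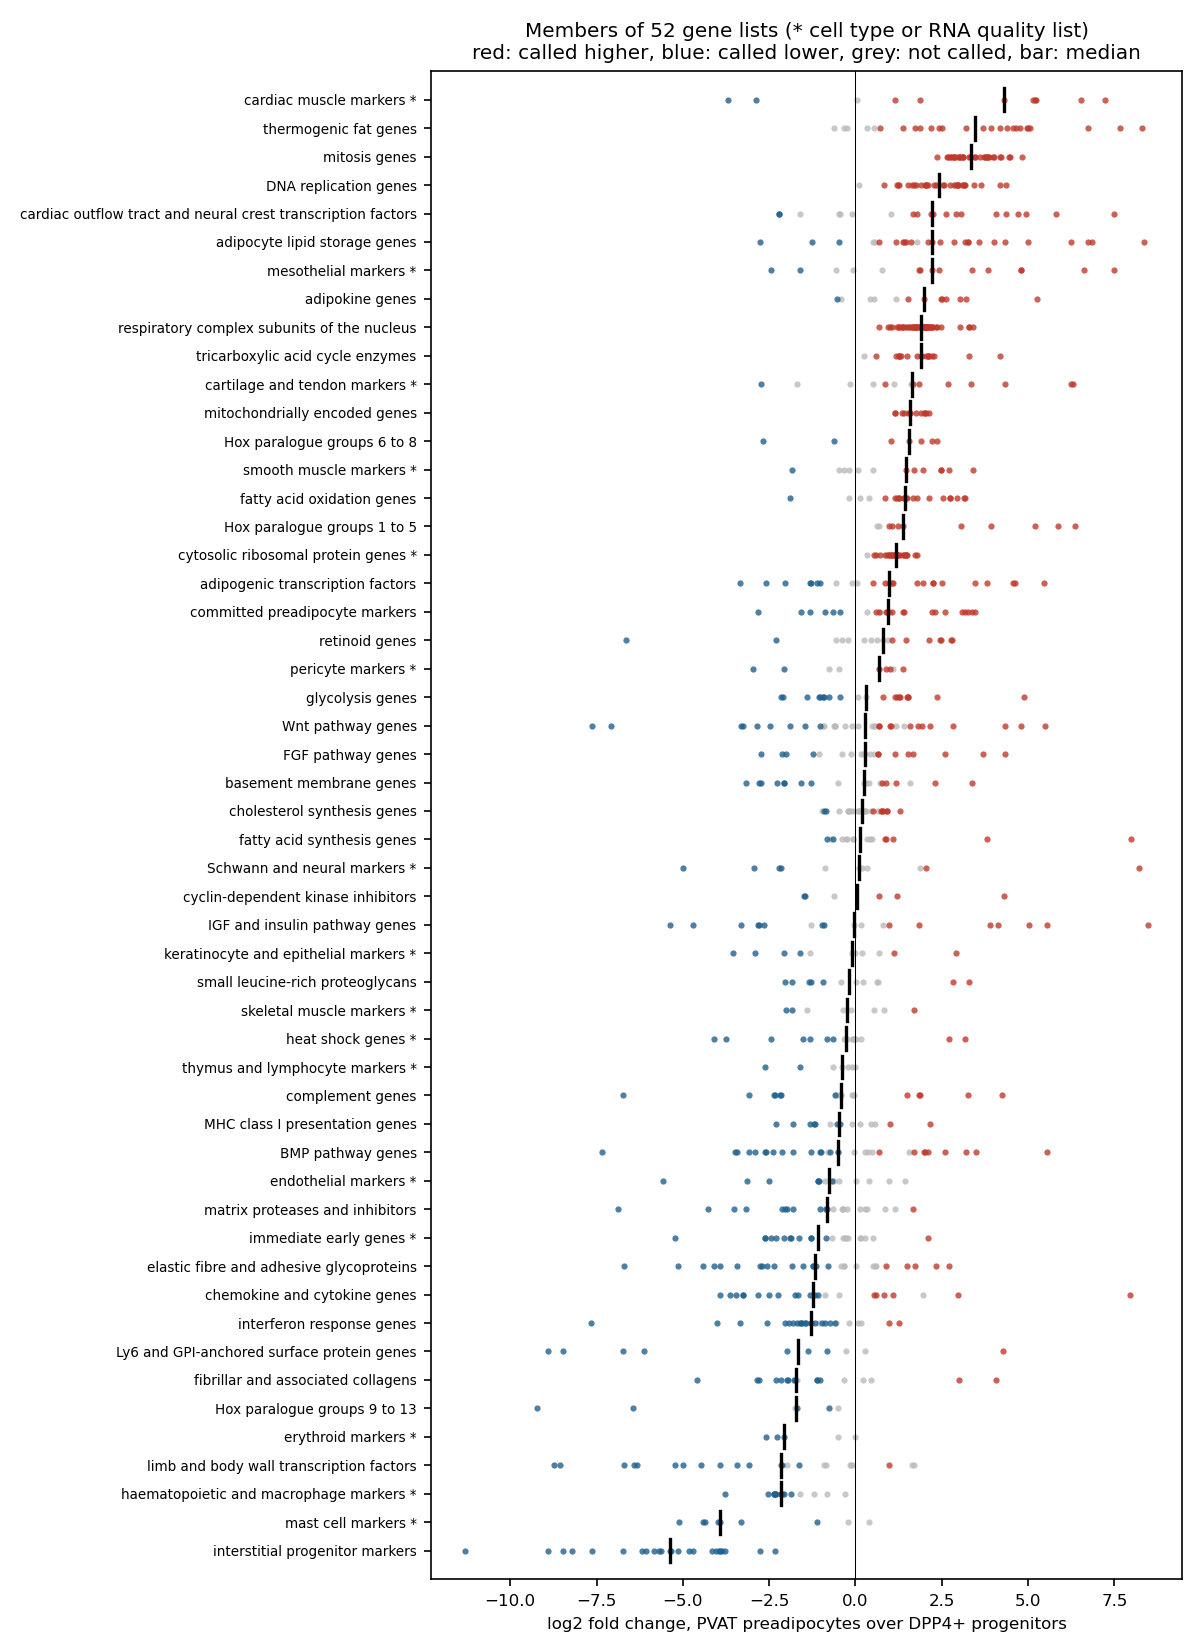
Log2 fold change (PVAT preadipocytes over DPP4+ progenitors) of every tested member of 52 gene lists, ordered by the list median (black bar); red and blue points are genes called higher and lower, grey points are not called, and a star marks lists of cell types and RNA quality. Thermogenic, mitosis and DNA replication genes have medians of 3.45, 3.36 and 2.43, and interstitial progenitor markers the lowest median, -5.36.

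Signalling pathways moved in both directions at the level of single ligands, receptors and inhibitors. Among Wnt pathway genes, 12 of 34 were higher and 9 lower, shares close to the background. Wnt10b (chromosome 15, 98770712 to 98778150, minus strand), a ligand that restrains adipogenesis, was measured at 0.0983, 0.196 and 0.161 CPM in the 3 PVAT preadipocyte libraries and 20.1, 20.05 and 24.7 CPM in the 3 DPP4+ progenitor libraries, and no PVAT preadipocyte library reached 1 CPM (log2 fold change -7.09 ± 0.43 (SE), edgeR adjusted p = 8e-08). Sfrp1 (chromosome 8, 23411502 to 23449632, plus strand), a secreted Wnt antagonist, was measured at 218, 173 and 117 CPM in the 3 PVAT preadipocyte libraries and 4.36, 4.25 and 2.71 CPM in the 3 DPP4+ progenitor libraries, the reverse order (log2 fold change 5.48 ± 0.63 (SE), edgeR adjusted p = 1.76e-05). The antagonist Sfrp4 (-2.86) and the receptor gene Lgr5 (-3.26) were lower, and the antagonist Frzb (4.33) was higher.

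BMP pathway genes were lower for 15 of 31 and higher for 9. Bmp7 (chromosome 2, 172868012 to 172940321, minus strand), a ligand, was measured at 0.934, 0.44 and 0.429 CPM in the 3 PVAT preadipocyte libraries and 83.4, 89.2 and 124 CPM in the 3 DPP4+ progenitor libraries, without overlap (log2 fold change -7.34 ± 0.66 (SE), edgeR adjusted p = 2.34e-06). The ligand genes Bmp4 (-3.09) and Bmp6 (-3.44) were lower as well, while the ligand Gdf10 (2.58), the extracellular inhibitor Nog (3.21) and the intracellular inhibitor Smad6 (3.49) were higher. Fstl1, a secreted follistatin-like protein, was at 1617 ± 1087 against 12046 ± 489 CPM.

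Of 21 FGF pathway genes, 8 were higher and 4 lower. The ligands Fgf1 (-2.75) and Fgf2 (-2.13) were lower and Fgf10 was higher (0.66). Of the receptors, Fgfr1 was lower (-1.23) and Fgfr2 higher (2.6), and Klb, the coreceptor for endocrine FGF21, was at 34.7 ± 12.04 against 2.68 ± 0.597 CPM.

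In the insulin and IGF pathway, 7 of 19 genes were higher and 8 lower. Irs4 (chromosome X, 141710998 to 141725263, minus strand), an insulin receptor substrate, was the gene with the highest log2 fold change under the naming rule. It was measured at 23.5, 43.03 and 48.3 CPM in the 3 PVAT preadipocyte libraries and 0.214, 0.0759 and 0 CPM in the 3 DPP4+ progenitor libraries, where the DPP4+ values rest on single counts (log2 fold change 8.47 ± 0.68 (SE), edgeR adjusted p = 8.51e-07). Binding proteins were divided, with Igfbp2 (5.54) higher and Igfbp5 (-4.72) and Igfbp6 (-5.38) lower. Grb10, an imprinted adaptor that dampens insulin signalling, was at 222 ± 67.7 against 1546 ± 34.7 CPM.

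Retinoid genes were higher for 7 of 17 and lower for 2. Aldh1a3, a retinaldehyde dehydrogenase, was measured at 5.85, 6.89 and 6.76 CPM in the 3 PVAT preadipocyte libraries and 649.7, 629 and 679 CPM in the 3 DPP4+ progenitor libraries, even within each group and far apart between them (log2 fold change -6.65 ± 0.16 (SE), edgeR adjusted p = 1.12e-10). Its relative Aldh1a2 was higher (2.77), and the receptor gene Rarg was lower (-2.3).

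Interferon response genes were lower for 20 of 27 tested and higher for 2, with a median of -1.30. Under library-total scaling, 13 were lower and 4 higher. Ifi205 (chromosome 1, 174011998 to 174031810, minus strand), a member of the p200 family of DNA sensors, was measured at 0.295, 0.147 and 0.107 CPM in the 3 PVAT preadipocyte libraries and 31.2, 38.04 and 46.7 CPM in the 3 DPP4+ progenitor libraries (log2 fold change -7.66 ± 0.32 (SE), edgeR adjusted p = 4.8e-09). Its paralogue Ifi204 was at 3.08 ± 0.622 against 30.97 ± 0.779 CPM. Oas1a, a double-stranded RNA sensor, had 0, 2 and 3 counts in the PVAT preadipocyte libraries and 25, 15 and 18 in the DPP4+ libraries (log2 fold change -4.01 ± 0.73 (SE), edgeR adjusted p = 0.000587). Isg15, a ubiquitin-like modifier, was called higher. TTTCNNTTT, the core of the interferon-stimulated response element, was searched on both strands of the 250-base windows. It was in 53.8% of 26 windows of 21 matched genes, against 9.37% of all windows and 7.14% of those of tested genes. Outside the chromosome left out above, the 3 genes with the largest fold changes and a match are shown, with the matches in capitals (GRCm38.p6: Ifi205 chr1:174031756-174032005, minus strand; Oas1a chr5:120907526-120907775, minus strand; Ifi203 chr1:173942493-173942742, minus strand).
Ifi205: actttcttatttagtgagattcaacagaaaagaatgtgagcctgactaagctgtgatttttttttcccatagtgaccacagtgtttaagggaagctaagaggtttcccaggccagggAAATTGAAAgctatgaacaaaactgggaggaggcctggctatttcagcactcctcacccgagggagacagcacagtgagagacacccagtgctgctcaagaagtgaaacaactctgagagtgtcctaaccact
Oas1a: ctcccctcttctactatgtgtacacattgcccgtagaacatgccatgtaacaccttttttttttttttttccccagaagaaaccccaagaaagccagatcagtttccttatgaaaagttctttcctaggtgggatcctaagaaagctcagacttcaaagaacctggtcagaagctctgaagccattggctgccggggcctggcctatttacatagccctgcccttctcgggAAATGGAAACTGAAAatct
Ifi203: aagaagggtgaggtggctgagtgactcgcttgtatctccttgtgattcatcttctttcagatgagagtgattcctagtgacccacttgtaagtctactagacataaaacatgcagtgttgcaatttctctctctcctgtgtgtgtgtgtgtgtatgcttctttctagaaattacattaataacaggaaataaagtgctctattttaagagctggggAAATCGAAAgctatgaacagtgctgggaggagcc
Ifi205 and Ifi203 each hold 1 match, and Oas1a holds 2 that overlap in part.

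Of 22 chemokine and cytokine genes, 13 were lower and 6 higher. In a fit of these 6 libraries alone, 13 were lower and 2 higher. Ccl2 was at 12.9 ± 1.85 against 124 ± 25.69 CPM and Ccl7 at 9.499 ± 2.503 against 118 ± 22.1 CPM, chemokines that attract monocytes. Cxcl13 (chromosome 5, 95956951 to 95961068, plus strand), which attracts B cells, went the other way: it was measured at 29.5, 28.7 and 40.6 CPM in the 3 PVAT preadipocyte libraries and 0, 0.228 and 0.164 CPM in the 3 DPP4+ progenitor libraries, and the DPP4+ libraries held 0, 3 and 2 counts (log2 fold change 7.94 ± 0.46 (SE), edgeR adjusted p = 5.7e-08). Il33 (chromosome 19, 29925114 to 29960718, plus strand), an alarmin made by stromal cells of fat, was measured at 178, 93.9 and 76.6 CPM in the 3 PVAT preadipocyte libraries and 14.9, 15.5 and 13.8 CPM in the 3 DPP4+ progenitor libraries (log2 fold change 2.98 ± 0.27 (SE), edgeR adjusted p = 2.74e-06). Ackr2 (-8.42) and Ackr3 (-3.45), scavenger receptors that remove chemokines, were lower. MHC class I genes were lower for 7 of 14 and higher for 2, the immunoproteasome genes Psmb8 and Psmb9, and 4 were lower and 5 higher under library-total scaling. H2-K1 was at 124 ± 23.3 against 285 ± 39.3 CPM, and B2m, called lower (-0.53, edgeR adjusted p = 0.0133), was at 0.08 (adjusted p = 0.668) under library-total scaling and was not called without PVAT preadipocyte replicate 2 (0.0586) or DPP4+ replicate 3 (0.0761). Of 19 complement genes, 7 were lower and 5 higher, with C3 at 137 ± 32.1 against 38.4 ± 6.62 CPM.

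Genes that respond within minutes to tissue digestion and handling were given with these results as a measure of RNA state. Immediate early genes were lower in PVAT preadipocytes for 12 of 22 and higher for 1, Jund (median -1.07). As a share of all counts, the list held 0.756, 0.551 and 0.468% in the PVAT preadipocyte libraries. In the DPP4+ libraries it held 0.583, 0.563 and 0.596%, so the groups overlapped on that scale. The Jund call was lost without PVAT preadipocyte replicate 3 (adjusted p = 0.107) or any 1 DPP4+ library (0.0638 to 0.102). Those of the list with the most counts were not called, Fos at 959 ± 367 against 1159 ± 88.3 CPM and Egr1 at 1464 ± 448 against 1036 ± 228 CPM. Without PVAT preadipocyte replicate 1 Fos was called lower (-0.68, edgeR adjusted p = 0.00145), and under library-total scaling Egr1 was called higher (1.10, adjusted p = 0.0147). Ptgs2, which encodes cyclooxygenase 2, was at 1.57, 1.12 and 0.161 CPM in PVAT preadipocytes and 262, 195 and 202 in DPP4+ progenitors (log2 fold change -7.82 ± 0.51 (SE), edgeR adjusted p = 1.41e-07). Hspa1a was measured at 20.7, 14.6 and 13.1 CPM in the 3 PVAT preadipocyte libraries and 256, 261 and 307 CPM in the 3 DPP4+ progenitor libraries, and its near-identical copy Hspa1b had a log2 fold change of -3.74; reads of the pair could have been split. The heat shock list as a whole was mixed, 7 of 16 lower and 2 higher (the mitochondrial chaperonins Hspd1 and Hspe1), which became 4 lower and 8 higher under library-total scaling. In the comparison of PVAT progenitors with ICAM1+ preadipocytes, 15 of 22 immediate early genes and 10 of 16 heat shock genes were lower, and none was higher. The part of handling in the differences was not tested.

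Markers of other cell types were read for what the sorted populations held. Haematopoietic and macrophage markers were lower in PVAT preadipocytes for 12 of 16 (summed level 40.8 to 60.2 CPM against 70.4 to 257), and without DPP4+ replicate 2, the highest, 7 were lower. Mast cell markers were lower for 7 of 9 (29.3 to 35.2 against 90.3 to 351 CPM), with Tpsb2, a tryptase, at 2.26, 1.91 and 2.09 and 20.7, 93.3 and 19.03 CPM. Endothelial markers were lower for 7 of 14 and higher for none (112 to 184 against 826 to 1076 CPM). Under library-total scaling 3 were lower and 2 higher, and without PVAT preadipocyte replicate 2 or DPP4+ replicate 2, 4 were lower. Most of that sum was Tek, an angiopoietin receptor, at 14.3 ± 6.12 against 684 ± 60.8 CPM, whereas Cdh5, VE-cadherin, was at 2.03 ± 0.843 against 11.4 ± 5.101 CPM and Pecam1 at 18.3 ± 6.44 against 38.7 ± 13.2 CPM (not called under library-total scaling, adjusted p = 0.139). Their part in the differences above was not tested.

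Smooth muscle, cardiac and mesothelial markers were more often higher than lower in PVAT preadipocytes. Smooth muscle markers were higher for 7 of 13 and lower for 1, Des (640 to 1025 against 268 to 454 CPM): Acta2, smooth muscle actin, was at 365, 353 and 246 CPM against 40.4, 98.8 and 35.3, but Myh11, the more specific myosin heavy chain, was not called (37.2, 45.5 and 28.8 against 25.4, 78.97 and 22.7 CPM, log2 fold change -0.19 ± 0.48 (SE), edgeR adjusted p = 0.758). Cardiac muscle markers were higher for 8 of 11 and lower for 2, and their summed level was uneven within the PVAT preadipocytes, 23.5, 90.8 and 169.5 CPM in replicates 1, 2 and 3, against 16.8 to 18.4 CPM in DPP4+ progenitors. Myl7, the atrial myosin light chain, was at 3.29, 18.4 and 39.1 CPM, and Actc1, cardiac actin, at 4.03, 24.4 and 43.6 CPM; Myl3 (-3.68) and Nppb (-2.89) were the 2 called lower. These are also the libraries in which the thermogenic and respiratory lists were lowest in replicate 1, and the part of cardiac cells was not tested. Mesothelial markers were higher for 10 of 15 and lower for 2, the keratins Krt19 and Krt8. Krt8 was not called under library-total scaling (adjusted p = 0.0798) or without DPP4+ replicate 2 (0.0597). The summed level of the list was 103 to 156 against 47.4 to 56.3 CPM, with Msln, mesothelin, at 10.6, 15.7 and 3.81 against 1, 1.37 and 0.492 CPM. Pericyte markers were split, 4 higher and 2 lower of 10, and cartilage and tendon markers were higher for 8 of 14, among them Tnmd at 20.5 ± 14.1 against 2.01 ± 0.711 CPM, and lower for 1, Matn4. Schwann and neural markers were higher for 2 of 11 and lower for 4. Th, tyrosine hydroxylase of sympathetic nerves, had 126 counts in the PVAT preadipocyte libraries and none in the DPP4+ libraries, at least 27.8-fold higher with a floor of 3 counts over the group. Lists of other tissues were small: 3 of 5 erythroid, 4 of 11 keratinocyte (1 without DPP4+ replicate 2), 2 of 8 skeletal muscle and 2 of 7 thymus and lymphocyte markers were lower, and 0, 2, 1 and 0 were higher. Of the markers on these lists found by symbol in the count table, Krt5, a basal keratin, was at 0 counts in both groups, and Th, Foxd3 and Krt1 in the DPP4+ libraries alone. The markers Hba-a2, Ahsp, Myf5, Myod1, Tnnc2 and Nppa were not in that table.

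PVAT progenitors and ICAM1+ preadipocytes share no library with this comparison. In that pair the depots are ordered as here, perivascular over inguinal, while the stages are reversed, progenitor over preadipocyte. It had 2669 calls (14.2%), 1302 higher (6.91%) and 1367 lower (7.25%). Both comparisons called 1756 genes. Of these, 1398 had the same direction, 13.9% of the calls of PVAT preadipocytes against DPP4+ progenitors and 52.4% of the calls of the other pair. The other 358 had opposite directions, 3.57% and 13.4%. Without PVAT progenitor replicate 1, 1333 genes had the same direction and 538 opposite directions. At least 2-fold in both, 188 genes were higher in both and 234 lower in both, 52 were higher here and lower there, and 84 were lower here and higher there.

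**Figure D5:**
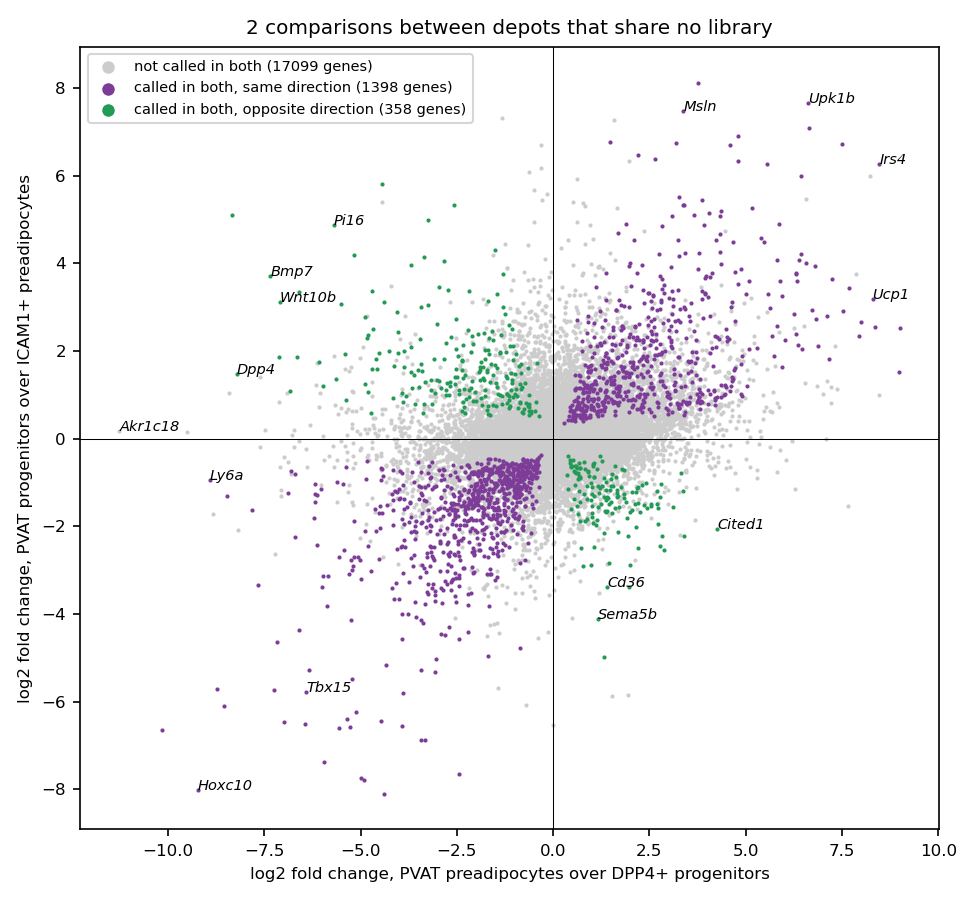
Log2 fold change of 18855 genes for PVAT preadipocytes over DPP4+ progenitors (x axis) and PVAT progenitors over ICAM1+ preadipocytes (y axis), from libraries that do not overlap; purple genes are called in both with the same direction (1398), green with opposite directions (358). Ucp1 and Irs4 lie at the upper right, Hoxc10 and Tbx15 at the lower left, Dpp4 and Pi16 at the upper left and Cd36 and Cited1 at the lower right.

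Genes with the same direction in both pairs included Ucp1 (8.29 here and 3.19 in the other pair), Irs4 (8.47 and 6.27), Car3 (8.35 and 2.55) and Upk1b, a uroplakin of mesothelium (6.61 and 7.66, with 2 counts in the DPP4+ libraries). Lower in both were Hoxc10 (-8.02 in the other pair), Hoxa10 (-6.43 and -6.52) and Tbx15 (-6.42 and -5.78). Opposite directions were seen for Dpp4 (-8.21 and 1.48), Pi16 (-5.69 and 4.88), Bmp7 (-7.34 and 3.72) and Wnt10b (-7.09 and 3.11). In the reverse order were Cd36, a fatty acid transporter (1.4 and -3.38), Cited1, a transcriptional coregulator (4.27 and -2.06), and Agt, angiotensinogen (1.99 and -2.87).

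By gene group, the lists fell into different patterns over the 2 pairs. In the other pair, the Hox genes of groups 1 to 5 were higher for 7 of 11 and none was lower, those of groups 9 to 13 were lower for 5 of 6, and limb and body wall factors were lower for 12 of 23. Interstitial progenitor markers, lower for 24 of 24 here, were higher for 12 and lower for 3 there. Nuclear-encoded respiratory subunits, higher for 54 of 54 here, had a median of 0.05 there and a range of -0.48 to 0.52. Mitosis genes were higher for 18 of 35 there and thermogenic genes for 9 of 26, with 3 lower.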

How the data were processed

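The deposited table holds raw counts per gene for 12 libraries, made by the authors from poly(A) RNA of sorted cells. STAR 2.5.2a, build mm10 and DESeq2 1.26.0 are named in the submitters' processing notes; the counting tool, the annotation and the strand setting were not given in the sources used here. Of 31099 genes, 20387 carry a symbol.

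Counts were tested with edgeR 4.0.16 (R 4.3.3) in 1 quasi-likelihood fit of all 12 libraries with a mean per group. Genes were kept by filterByExpr (minimum count 10) and scaled by TMM, and p-values were two-sided and adjusted by Benjamini-Hochberg over all 18855 genes. A gene is called at an adjusted p under 0.05. CPM values are counts relative to the TMM-scaled library total, and errors are SE of the log2 fold change or SD over 3 libraries. Each library is a pool of mice and each group has 3; totals of 15614628 to 25674461 counts set the counting error. Intervals at 95% and the floor of 3 counts cover counting error only. Gene positions are 1-based mm10 coordinates of GENCODE M21, and promoter windows are from the RefSeq table of build GRCm38.p6. Counts without strand cannot tell overlapping genes apart.

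Named genes are the 10 highest and 10 lowest fold changes with separate groups and at least 10 CPM, 16 fixed genes, up to 4 called genes per direction and the 2 with the most counts of each of 52 lists, the 8 largest CPM differences per direction, and the 6 largest changes for each combination of directions with the other pair. Ube2c, Cdk1 and the other genes with printed promoters have the largest fold changes among list members with the motif, after windows of a single chromosome were left out. Some genes that meet this rule are not reported here. Genes that make up a count of 3 or fewer within a list were named after their values were seen. The comparison, the members and the lists were chosen with earlier results of these data known. Several lists share members, and their counts are not independent. Cidea is on the thermogenic and lipid storage lists, and Fn1 on the interstitial progenitor and elastic fibre lists. Wt1 is on the outflow tract and mesothelial lists, and subunits of succinate dehydrogenase are on the respiratory and tricarboxylic acid cycle lists. Per the labels, same-numbered libraries of the 2 depots come from the same pool; the deviations of PVAT preadipocytes and DPP4+ progenitors from their group means correlated at 0.0149, 0.139 and 0.153 in pools 1, 2 and 3. Those of DPP4+ and PVAT progenitors correlated at -0.163, 0.105 and -0.201, those of PVAT preadipocytes and ICAM1+ preadipocytes at -0.094, 0.00789 and -0.0882, and those of PVAT progenitors and ICAM1+ preadipocytes at 0.0789, -0.116 and 0.106. Of the 12 libraries, 2 correlated best with one of their own number. Replicate libraries differed beyond sampling noise. Alternatives were library totals and upper quartile scaling, DESeq2 1.42.0, limma-voom 3.58.1, other filters, a replicate block, the 2 groups alone and leaving out each library.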

Additional observations from a re-analysis of the deposited data

How the results depend on the processing

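The count of 10029 called genes stayed within 1.5 times under the alternatives run: 10334 with DESeq2, 12289 with limma-voom, 9969 with upper quartile scaling, 9823 without the filter, 9106 with a minimum count of 30 and 8857 with the 2 groups alone. Leaving out 1 library gave 8636 to 10794. With the replicate block, 9639 genes were called, 9513 of them (94.9%) among the calls without it, and 8578 with the block and the 2 groups alone, an alternative chosen after seeing the data. Under library-total scaling, 9050 genes were called higher and 2444 lower. B2m (0.0788), Abhd5 (0.124) and Angptl4 (0.0661) then turned positive and were not called. Under that scale the median of all genes was 0.69. Of the counts of members called higher or lower in the 52 gene lists, 30 then moved by more than 1.5 times and 74 did not; with DESeq2 these were 3 and 101, and with limma-voom 14 and 90. In the other pair, limma-voom called 5730 genes, with 2723 in the same and 1286 in the opposite direction; leaving out 1 library gave 1523 to 3543 calls, 844 to 1749 in the same and 201 to 616 in the opposite direction. The lowest values came without an ICAM1+ preadipocyte library. The cause of these shifts was not tested. The block changed the call of 2 of the genes named, Cebpb (4.54, adjusted p = 0.0502) and Abhd5 (-0.481, adjusted p = 0.0661). Of 167 called genes named, 154 kept call and direction in every alternative run. With 3 pools a group, a gene that was not called is not shown to be equal.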

Other observations

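Glycolysis genes were split. Of 21, 10 were higher in PVAT preadipocytes and 9 lower, with a median of 0.30. Ldhb, the lactate dehydrogenase subunit of oxidative tissue, was at 529.9 ± 202 against 17.8 ± 2.805 CPM (log2 fold change 4.89 ± 0.29 (SE), edgeR adjusted p = 6.27e-08), and Pfkl, the liver-type phosphofructokinase, had a log2 fold change of 2.37. Hk1, hexokinase 1 (-2.16), and Slc16a3, the lactate exporter MCT4 (-2.09), were lower. Under library-total scaling, 11 were higher and 4 lower. Of 24 cholesterol synthesis genes, 7 were higher, near the share of all genes, and 2 lower, below that share. These became 19 higher and 0 lower under library-total scaling. TCACCCCAC, a form of the sterol regulatory element, was in 1 of 19 of their promoter windows (5.26%), against 0.515% of those of tested genes. The share of the list rests on that 1 window.

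Among 16 fatty acid synthesis genes, 5 were higher and 2 lower (8 and 0 under library-total scaling). Thrsp, a lipogenic protein of fat and liver, was at 49.3, 168 and 176 CPM in PVAT preadipocytes and 0.214, 0.835 and 0.492 CPM in DPP4+ progenitors, without overlap (log2 fold change 7.99 ± 0.61 (SE), edgeR adjusted p = 5.53e-07). Acly, ATP citrate lyase, was at 168 ± 46.8 against 297 ± 34.4 CPM (log2 fold change -0.82 ± 0.23 (SE), edgeR adjusted p = 0.0095), and was not called under library-total scaling (-0.23, adjusted p = 0.407). Without PVAT preadipocyte replicate 1, 5 of the 16 genes were lower in place of 2.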
